A study of Mus musculus with 6 samples.

Results

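Lin28a and 6 genes that act with it in fetal and embryonic cells were followed in the spleen of mice with a mutated cyclin D3. The genes were Lin28a, Lin28b, Igf2bp2, Igf2bp3, Hmga1, Hmga2 and Arid3a, found in the deposited gene table by Ensembl identifier through their GENCODE M21 symbols. Of these 7 genes, 6 were among the 24906 genes listed, and 5 had enough reads to be among the 15564 genes tested. Lin28b was not listed and was counted as undetected. Lin28a was picked because its values were higher in the mutant mice, so its own difference is given as a description, with no test. The other genes were not picked by a rule on their values, but earlier results of these data were known when the group was put together.

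RNA came from splenocytes of 6 C57BL/6J mice aged 12 to 16 months, with 1 library of polyadenylated RNA per mouse. The 3 D3TA mice came from a line with a CRISPR/Cas9 knock-in in Ccnd3 that replaces threonine 283 of cyclin D3 with alanine (T283A). This line was kept as heterozygotes, and at this age its mice are said to have severe myeloproliferative neoplasm, an overgrowth of blood-forming myeloid cells. The 3 WT mice were age-matched wild-type animals without the knock-in. The labels name no transgene or further treatment, and 1 knock-in line limits the D3TA group as a model. Each library is named by its group and number, D3TA-1 to D3TA-3 and WT-1 to WT-3.

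LIN28A and its paralog LIN28B are RNA-binding proteins that block the maturation of let-7 microRNAs in embryonic cells. Mature let-7 in turn binds the 3′ untranslated regions (UTRs) of messenger RNAs, among them those of both Lin28 genes, the Igf2bp and Hmga genes and Arid3a, and lowers their output. In blood formation, LIN28B is known for a fetal programme that fades after birth, with IGF2BP, HMGA2 and ARID3A among its effectors. Lin28a itself is best known from early embryos and germ cells.

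The let-7 family is shown first because it links the 7 genes by sequence. The 9 mature let-7 and miR-98 names in the RefSeq set (GRCm38.p6) share 1 seed, the bases from 2 to 8 that pair with targets. The 4 sequences printed here come from hairpins within 3 host genes that the gene table lists, Wdr82, Huwe1 and Mir99ahg. The seed is in capitals:
mmu-let-7g-5p: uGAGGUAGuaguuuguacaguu
mmu-let-7f-5p: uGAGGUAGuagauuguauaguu
mmu-miR-98-5p: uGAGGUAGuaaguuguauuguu
mmu-let-7c-5p: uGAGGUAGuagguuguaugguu

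The let-7 hairpin is the part of the precursor that LIN28 proteins hold, and they are known to bind the letters GGAG in its loop. GGAG, searched on the RNA strand only, lay in the loop of 9 of the 12 family hairpins. The letters are common, and 44.5% of all 1005 RefSeq mouse hairpins held them somewhere. The let-7g hairpin on the plus strand of chr9:106178840-106178927 (GRCm38.p6) is printed as an example with GGAG in capitals:
Mirlet7g: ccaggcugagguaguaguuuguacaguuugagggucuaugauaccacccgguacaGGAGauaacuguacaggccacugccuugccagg

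Each of the 7 genes held at least 1 match to the let-7 seed in its longest annotated 3′ UTR, and 6 of them held the longer form. The letters searched on the transcript strand were CTACCTC, which pair with the seed, and the longer form CTACCTCA, which contains them. Over all mouse genes with an annotated 3′ UTR, 9.02% held the shorter letters and 3.06% the longer. The 7 genes were named above as known to be bound by let-7, so matches in them were likely in advance. The shares are given for scale only. The first match of each gene is printed with the 16 bases before it, with the matching letters in capitals, read from GENCODE M21 transcripts (GRCm38, the assembly also called mm10):
Lin28a, chr4:134005189-134005212, minus strand: tgcacagcctgttgaaCTACCTCA
Lin28b, chr10:45381022-45381045, minus strand: cacccgggcgggaagtCTACCTCA
Igf2bp2, chr16:22059473-22059496, minus strand: aacacacaaataaaagCTACCTCA
Igf2bp3, chr6:49086787-49086810, minus strand: gtgcatttttactcaaCTACCTCA
Hmga1, chr17:27563276-27563299, plus strand: ctcctctgttcacaaaCTACCTCt
Hmga2, chr10:120364224-120364247, minus strand: cgccgacattcaatttCTACCTCA
Arid3a, chr10:79953894-79953917, plus strand: caaggcaagtttctttCTACCTCA

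Lin28b and Hmga2 held the most matches, 4 each, and only 12 genes in all held as many or more. Lin28a and Arid3a held 2 each, and Igf2bp2, Igf2bp3 and Hmga1 held 1. Long UTRs hold more matches by length alone. Among UTRs within 20% of the length of the Lin28a UTR (2775 bases), 14.4% held at least 1 match. For the Lin28b UTR (4445 bases) the share was 24.2%, and for the Hmga1 UTR (1183 bases) it was 8.07%. A match of letters is a description of the transcript and says nothing of binding in these cells.

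Each library gave 14944622 to 19456838 reads in genes. The normalized count of a gene is its reads divided by the size factor of the library, and 3 reads were worth 2.59 to 3.36. Differences are D3TA minus WT of log2(normalized count + 1), with limma's moderated standard error (SE) and its 2-sided p adjusted by Benjamini-Hochberg over the 15564 genes at a threshold of 0.05. The WT-2 library stood apart, since 8449 genes were listed at 0 there, while each of the others had 3193 to 5170 such genes. Of the genes with a mean of 5 to 25 in the other 5 libraries, 48.3% were at 0 in WT-2, and this share was 4.71% to 16.2% when each other library was taken the same way. Zeros reached higher genes too. Of the genes at 50 or more in every other library, 9 were at 0 in WT-2, and 0 genes were at 0 when any other library was taken this way. A value of 0 in WT-2 is therefore given as listed, and the differences of Lin28a, Igf2bp2, Hmga2 and Zfp683 are also given without that library. The hemoglobin share was above 5% in D3TA-1, D3TA-2 and WT-3, and Y-linked reads marked D3TA-3 and WT-1, so neither division coincides with the genotypes.

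Lin28a RNA was detected in the spleens of all 3 D3TA mice and was close to absent in those of the WT mice. Lin28a (ENSMUSG00000050966) lies at chr4:134003330-134018841 on the minus strand. Over the D3TA mice, taken in number order here and throughout, its normalized counts were 461, 259 and 56.2. Over the WT mice they were 3.82, 0 and 11.6. The 3 D3TA libraries lay above the 3 WT libraries with no overlap, but they also differed widely among themselves. The reads behind these values were 430, 256 and 65 in the D3TA libraries and 4, 0 and 12 in the WT libraries. The group means were 258 ± 202 and 5.14 ± 5.91 (SD, n = 3 each), a ratio of means of 50.3 that rests on 16 WT reads.

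The log2 difference of Lin28a was 5.59 ± 1.06 (SE). It ranked 1 of 15564 genes by size, with Gpat2 at 5.58 within the SE, and the rank was 2 with a pseudocount of 5. The rank was 13 without WT-2, 24 without both D3TA-1 and WT-2, and 11 with a term for libraries above 5% hemoglobin. By DESeq2 it was 74 of the 24906 listed genes. By the rule that a gene needs 10 normalized counts in 3 libraries, Lin28a entered through the 3 D3TA libraries and WT-3. With WT-2 left out the difference was 4.61, and with both D3TA-1 and WT-2 left out it was 3.97. With a pseudocount of 5 in place of 1 it was 4.44. In each of these the D3TA mean remained above the WT mean, as it was chosen to be.

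**Figure D1:**
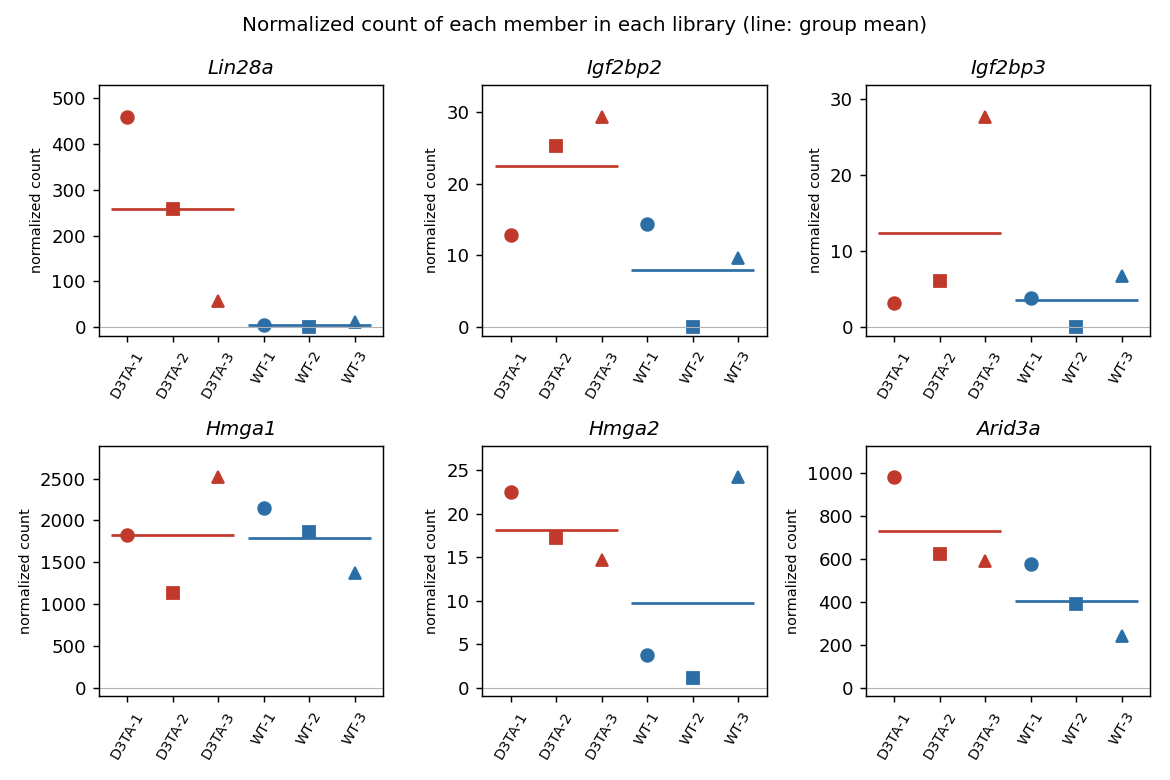
Normalized count (vertical axis, linear, its own scale in each panel) of the 6 listed genes in the 3 D3TA and 3 WT libraries (horizontal axis), with 1 point per library and a line at each group mean. Lin28a and Arid3a show no overlap between the groups, while the points of Igf2bp2, Igf2bp3, Hmga1 and Hmga2 overlap.

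Lin28b, the paralog of Lin28a and the form tied to fetal blood formation, was not among the listed genes. Its gene, ENSMUSG00000063804, lies at chr10:45376620-45486395 on the minus strand. Every gene in the table had at least 2 reads in total, so an unlisted gene is undetected at the depth given here, and its value cannot be bounded further from the table. Lin28a, by comparison, had 767 reads over the 6 libraries.

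The Igf2bp genes encode proteins that bind and stabilise messenger RNAs of growth genes, and both were near the limit of detection. Igf2bp2 (ENSMUSG00000033581, chr16:22059009-22163299, minus strand) had normalized counts of 12.9, 25.3 and 29.4 in the D3TA libraries and 14.3, 0 and 9.66 in the WT libraries. The groups overlapped, since WT-1 lay above D3TA-1. The means were 22.5 ± 8.61 and 8.0 ± 7.31 (SD, n = 3 each), and the difference of 2.03 ± 1.19 did not pass (limma adjusted p = 0.623). It was 0.80 without WT-2, the library in which Igf2bp2 was at 0.

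Igf2bp3 (ENSMUSG00000029814, chr6:49085223-49214957, minus strand), a fetal form seldom expressed in adult tissue, had normalized counts of 3.21, 6.06 and 27.7 in the D3TA libraries. In the WT libraries it had 3.82, 0 and 6.77. The D3TA-3 library alone was high, and the other D3TA values lay within the WT range. With 10 or more in 1 library only, Igf2bp3 was not tested, and its means were 12.3 ± 13.4 and 3.53 ± 3.39 (SD, n = 3 each). The library high in Igf2bp3, D3TA-3, was the D3TA library lowest in Lin28a. One end of the gene overlaps Malsu1 on the other strand over 1529 bases. The labels describe no step that marks strand, so reads in such a stretch cannot be told apart by strand.

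Hmga1 and Hmga2 encode small chromatin proteins that bind AT-rich DNA, and Hmga2 is the form best known from fetal tissues and stem cells. Hmga1 (ENSMUSG00000046711, chr17:27556497-27563674, plus strand) had normalized counts of 1833, 1133 and 2516 in the D3TA libraries and 2143, 1860 and 1378 in the WT libraries. It was the highest of the 6 listed genes, and its groups overlapped throughout. The means were 1827 ± 692 and 1794 ± 387 (SD, n = 3 each), with a difference of -0.02 ± 0.35 (limma adjusted p = 0.985). Its sign depended on the scaling, at 0.061 when only library size was used. A near-copy, Hmga1b, carried 3.25% to 7.50% of the Hmga1 value, and reads may be split between them. The sum of the pair had a mean of 1949 ± 739 in D3TA, beside 1893 ± 398 for WT (SD, n = 3 each).

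Hmga2 (ENSMUSG00000056758, chr10:120361275-120476469, minus strand) had normalized counts of 22.5, 17.2 and 14.7 in the D3TA libraries and 3.82, 1.12 and 24.2 in the WT libraries. WT-3 was the highest of the 6, so the groups overlapped. The means were 18.1 ± 3.98 and 9.70 ± 12.6 (SD, n = 3 each), and the difference of 1.57 ± 1.10 did not pass (limma adjusted p = 0.676). Without WT-2 the difference was 0.78.

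Within Hmga2 lie 2 listed antisense genes, both named after their values were seen. The noncoding gene 1700006J14Rik overlaps Hmga2 over 20180 bases and had 161, 89.9 and 30.3 in the D3TA libraries. In the WT libraries it had 17.2, 24.6 and 17.4. The groups did not overlap, and the D3TA mice stood in the same order as for Lin28a, an order shared by several of the cell marker sums given below. The difference of 1.91 ± 0.69 did not pass (limma adjusted p = 0.408). The second, 9230105E05Rik, had 22.5, 26.3 and 2.59 in D3TA and was at 0 in all 3 WT libraries, and it was too low to be tested. Reads of Hmga2 and of these genes cannot be told apart by strand in the stretches they share.

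Arid3a encodes a DNA-binding protein of B cell and fetal blood development, and it was the only tested gene besides Lin28a whose groups did not overlap. Arid3a (ENSMUSG00000019564, chr10:79927043-79955018, plus strand) had normalized counts of 978, 623 and 588 in the D3TA libraries and 575, 388 and 243 in the WT libraries. The gap between the lowest D3TA value and the highest WT value was small beside the spread within each group. The means were 730 ± 216 and 402 ± 167 (SD, n = 3 each). The difference of 0.91 ± 0.38 did not pass (limma adjusted p = 0.461), with all 3 D3TA values above all 3 WT values. It was 0.59 without WT-3 and 1.21 without WT-1.

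Of the 4 genes tested besides Lin28a, 0 passed limma's adjusted threshold, where the share over all genes tested was also 0%. Arid3a alone had an unadjusted p under 0.05 (0.0362), and over all genes 9.91% did, 6.08% higher and 3.83% lower. The groups did not overlap for Arid3a, with D3TA above WT, which was so for 8.18% of all genes. By edgeR's quasi-likelihood test on the recovered reads 0 of the 4 passed and 1 had an unadjusted p under 0.05. DESeq2 called 0 of the 4 as well, where it called 472 genes, 2.54% of those it tested (1.83% higher and 0.705% lower). DESeq2 was run on all listed genes with its own filter, and 422 of its 472 calls were among the 15564 genes. The 3 differences above 0 ranged from 0.91 to 2.03, and those of Igf2bp2 and Hmga2 came with SEs above 1.

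**Figure D2:**
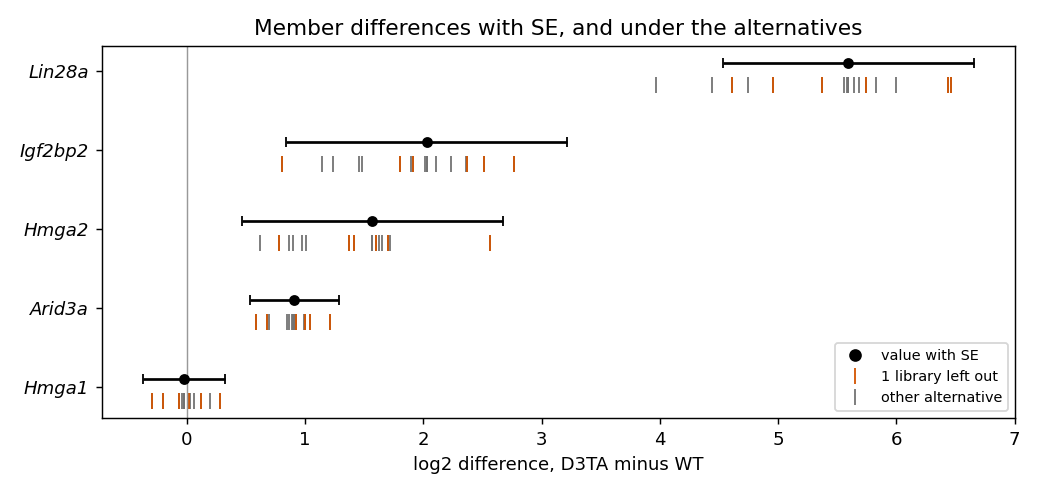
Difference between D3TA and WT (horizontal axis, log2) of the 5 tested genes, with the value and its SE as a black point and bar and the value under each alternative as a tick. Lin28a stayed between 3.97 and 6.46, and Hmga1 lay on both sides of 0.

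Per kilobase of exon, the levels fell into 3 tiers. Hmga1 led in both groups, with a mean normalized count per kilobase of 860 in D3TA and 844 in WT. Arid3a followed at 131 in D3TA and 72.3 in WT. Lin28a was at 64.7 in D3TA, with libraries from 14.1 to 115 that reached into the Arid3a range of 106 to 176. In WT, Lin28a was at 1.29 per kilobase, next to Hmga2 at 1.43, Igf2bp2 at 1.08 and Igf2bp3 at 0.432, and these 4 overlapped from library to library. In D3TA the same 3 genes were at 2.68, 3.04 and 1.51 per kilobase, below every D3TA value of Lin28a.

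The marker sums of several blood cell types also lay apart between the groups. In bulk RNA, fewer cells of a type and less RNA per cell cannot be told apart. All 8 early neutrophil markers (Mpo, Elane, Prtn3 and 5 more, granule enzymes and factors of neutrophil precursors) lay above WT in every D3TA library. This was so for 8.18% of all genes tested. The summed normalized count of the 8 markers was 49982, 25425 and 7734 over the D3TA mice, beside 1226 to 2188 for WT. The order among the D3TA libraries was that of Lin28a, and the late neutrophil, mitosis, erythroid and megakaryocyte sums stood in this order too. The 8 late neutrophil markers summed to 76572 to 416470 in D3TA and 11785 to 27043 in WT, and the 8 mitosis markers to 12177 to 59831 and 7577 to 8883. D3TA lay above WT without overlap for 7 of these late neutrophil markers and 6 of these mitosis markers. Cxcr2 of the former and Cdk1 and Birc5 of the latter overlapped between the groups. The 4 monocyte markers summed to 9716 to 10507 in D3TA and 4938 to 7694 in WT, but not in the order of Lin28a. Among them Csf1r overlapped between the groups, with a difference of -0.10 ± 0.35. The 8 megakaryocyte markers were all above 0 in their differences, but their sums overlapped, at 5272 to 12330 and 4054 to 5671. B cell markers, which mark the main cell of a normal spleen, summed to 11018 to 34305 in D3TA and 60768 to 76335 in WT. None of these marker genes passed the adjusted threshold of limma. Mpo, Elane and Prtn3 were above 0 in every library, while Cebpe and Mmp8 of the neutrophil lists were listed at 0 in WT-2 alone. The part of these cells in the Lin28a values was not tested.

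Lin28a was also set against the marker sums within each library, a measure chosen after the values were seen. Per 1000 normalized counts of early neutrophil markers, Lin28a stood at 9.21, 10.2 and 7.27 over the D3TA mice. Over the WT mice it stood at 3.12, 0 and 5.30. On this scale the D3TA libraries lay close together, as they also did per 1000 erythroid counts (0.383 to 0.507). Closeness on a scale is therefore not particular to the early neutrophil sum. On the early neutrophil scale the gap between the lowest D3TA and the highest WT value was narrower than for the normalized count itself. Per 1000 counts of late neutrophil markers the values were 0.625 to 1.11 in D3TA and 0 to 0.429 in WT. Ratios to sums of other cells also did not overlap between the groups. Lin28a was picked for its higher D3TA values, so a ratio to a sum that differs less keeps that gap. Per 1000 counts of stem and progenitor markers Lin28a was at 21.4 to 116 in D3TA and 0 to 6.81 in WT, and per 1000 counts of mitosis markers at 4.61 to 11.8 and 0 to 1.53.

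The sum of stem and progenitor markers, 2466 to 3953 in D3TA and 1703 to 3185 in WT, overlapped between the groups. The erythroid sum overlapped too, from 146683 to 908269 in D3TA and from 109945 to 615221 in WT. Lin28a per 1000 erythroid counts was at 0.383 to 0.507 in D3TA and 0 to 0.0189 in WT, which again keeps the gap for which Lin28a was picked.

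**Figure D3:**
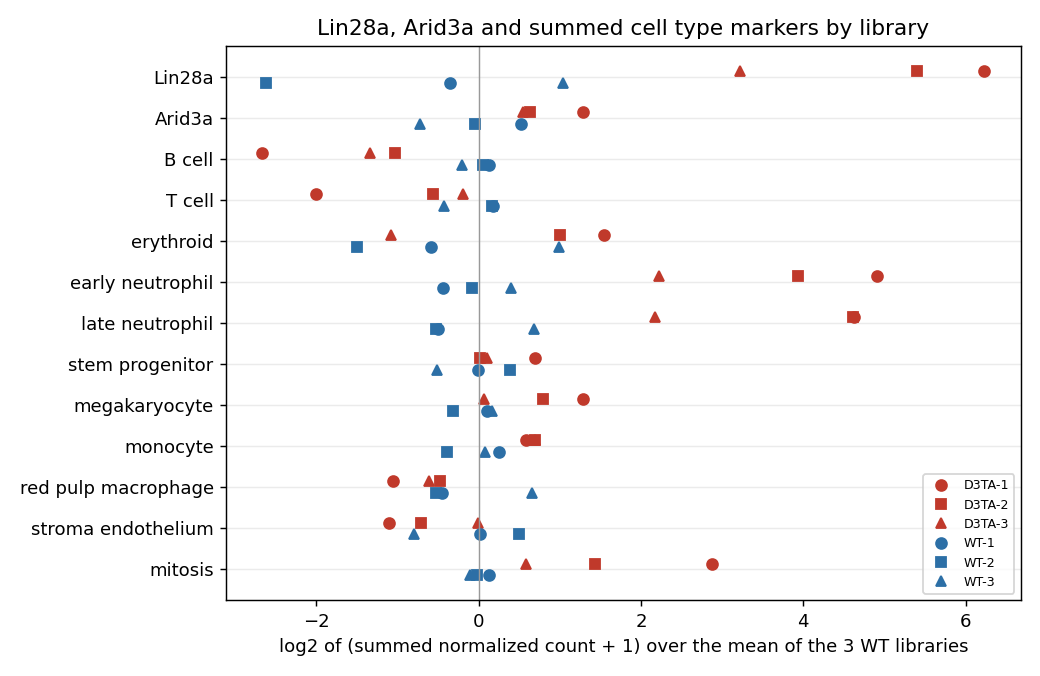
Lin28a, Arid3a and summed marker genes of 11 cell classes in each library, as log2 of the summed normalized count + 1 over the mean of the 3 WT libraries (horizontal axis), with 1 point per library. Lin28a and both neutrophil sums lie to the right in the 3 D3TA libraries, and the B cell sum lies to the left.

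The genes whose values followed Lin28a most closely over the 6 libraries were named by Pearson's r of log2(normalized count + 1). They were Ccno (r = 0.998), Dmkn (0.997), Cd300lf (0.995), Lilrb4a (0.992) and 1700020L24Rik (0.991). Ccno, a cyclin-like gene known from multiciliated cells, had 176, 91.9 and 31.1 in the D3TA libraries and 3.82, 0 and 9.66 in the WT libraries. Cd300lf and Lilrb4a, receptors of myeloid cells, had means of 976 and 253 in D3TA and 356 and 50.4 in WT. These correlations describe 6 points that fall into the 2 genotypes, and 437 of 15563 genes had an r over 0.9 with Lin28a. Dync1li2 (0.996) followed Arid3a closely. The closest were, for Igf2bp2, Lrrc3 (0.999) and Cacng8 (0.998), and for Hmga2 4930426L09Rik (0.996) and Gm16196 (0.995). For Hmga1 they were Naa25 (0.988) and a gene without a symbol, ENSMUSG00000054178 (0.985). Ccno, Dmkn, Lrrc3, Cacng8, 4930426L09Rik and Gm16196 were each listed at 0 in WT-2, as were Lin28a and Igf2bp2. Over the 5 libraries without WT-2, r was 0.999 for Ccno, 0.994 for Dmkn, 0.996 for Lrrc3, 0.984 for Cacng8, 0.990 for 4930426L09Rik and 0.987 for Gm16196.

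The genes on either side of Lin28a are given as a description. Lin28a ranked 1 of 15564 genes by its difference, so lower differences at its neighbours were fixed in advance. Within 100 kb, 6 annotated neighbours were listed and tested, and 0 passed limma's adjusted threshold. Hmgn2, a nucleosome-binding protein, had 7685, 6939 and 3700 in the D3TA libraries and 2119, 2055 and 3484 in the WT libraries. Its groups did not overlap, with a difference of 1.23 ± 0.36 (limma adjusted p = 0.308). Dhdds, which lies between Hmgn2 and Lin28a and makes dolichol precursors, differed by 0.29 ± 0.27 and its groups overlapped. Zfp683 was low, at 8.57, 30.3 and 12.1 in the D3TA libraries and 8.60, 0 and 22.2 in the WT libraries. Its difference of 1.38 ± 1.29 was 0.079 without WT-2. Crybg2 differed by 0.35 ± 0.58, Ubxn11 by -0.15 ± 0.45 and the lymphocyte surface gene Cd52 by -0.66 ± 0.44. The antisense gene Gm13061 overlaps 695 bases of Lin28a and was not listed.

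**Figure D4:**
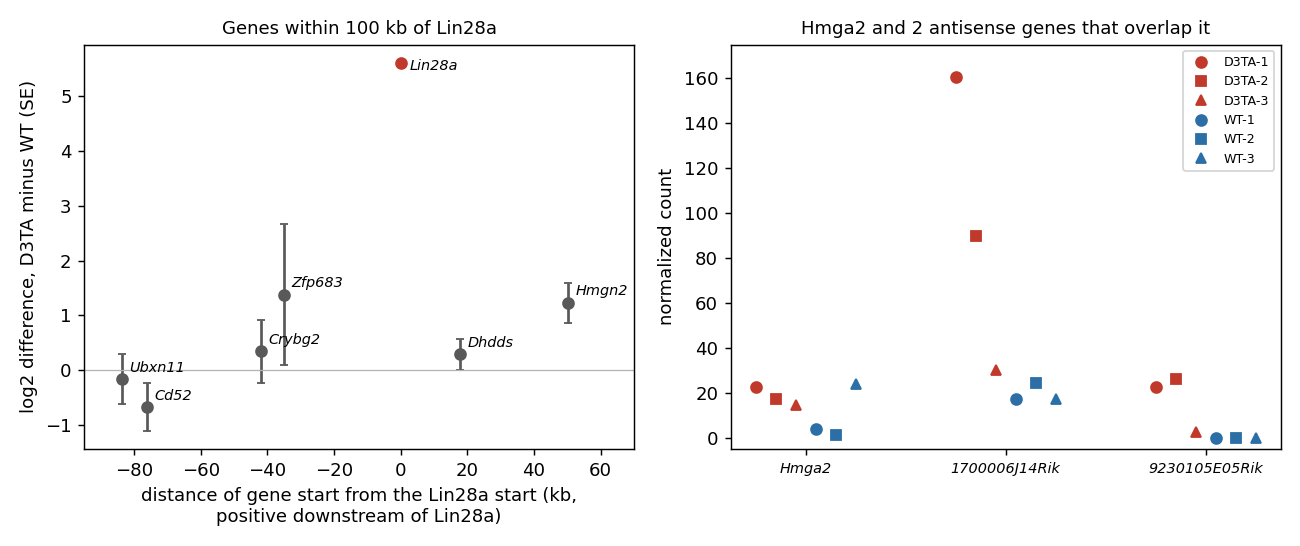
Left, difference between D3TA and WT with its SE (vertical axis, log2) of the genes within 100 kb of Lin28a against the distance of their start from the Lin28a start (horizontal axis, kb). Right, normalized count of Hmga2 and the overlapping antisense genes 1700006J14Rik and 9230105E05Rik in each library (points). Lin28a, picked for its higher D3TA values, is at 5.59. Hmgn2 is at 1.23 and Zfp683 at 1.38, the latter at 0.079 without WT-2.

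Around Lin28a, 11 lists were read, 4 on let-7 and paralogs and the others on globins, fetal growth, B cells, pluripotency and germ cells. They held 124 genes in all, of which 82 were tested. By limma 0 of the 82 passed the adjusted threshold, and 19 (23.2%) had an unadjusted p under 0.05, beside 9.91% of all genes. Of the 82, 54 lay above 0 and 28 below, with a median difference of 0.24, beside 54.5% above 0 and a median of 0.06 over all genes tested. Out of the same 82, groups did not overlap for 10 genes higher and 7 lower in D3TA, beside 8.18% and 6.84% of all genes.

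Among the 17 genes that make or destroy let-7, 12 lay above 0 and 5 below, with a median of 0.32. Drosha and Dgcr8, which cut the primary transcript, differed by 1.01 ± 0.44 and 0.87 ± 0.36 (limma adjusted p = 0.490 and 0.456). Dicer1, which cuts the precursor, differed by 0.47 ± 0.36. The enzymes that act on a precursor bound by LIN28 lay on both sides of 0. Tut7, a uridyl transferase, had 1651, 1291 and 838 in the D3TA libraries and 809, 580 and 584 in the WT libraries, and its difference of 0.90 ± 0.33 did not pass (limma adjusted p = 0.409). Tut4, the related transferase, differed by -0.51 ± 0.37, and Dis3l2, the nuclease that degrades the uridylated precursor, by -0.59 ± 0.34. Mature microRNAs are not seen in polyadenylated RNA, and of the host transcripts Wdr82, Huwe1 and Mir99ahg none passed. Wdr82 differed by -0.28 and Huwe1 by 0.55.

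Of 24 further let-7 targets, 19 were tested, 14 above 0 and 5 below, with a median of 0.21. Plagl2, a zinc finger factor, had 1035, 651 and 577 in the D3TA libraries and 553, 320 and 153 in the WT libraries. Its difference of 1.28 ± 0.46 (limma adjusted p = 0.407) and that of the cell cycle kinase Cdk6, 1.16 ± 0.44 (0.423), were the ones with the smallest p. Mycn lay the other way, at 18.2, 9.09 and 8.64 in D3TA and 28.7, 50.4 and 35.8 in WT, with no overlap and a difference of -1.63 ± 0.72 (limma adjusted p = 0.490). Igf2bp1, the third member of the Igf2bp family and the one most tied to fetal growth, had at most 1.1 in any library. Among the paralogs, Arid3b differed by -0.26 and Ybx3 by 0.53, and Carhsp1, a cold-shock protein related to LIN28, by 0.65, with overlapping groups.

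**Figure D5:**
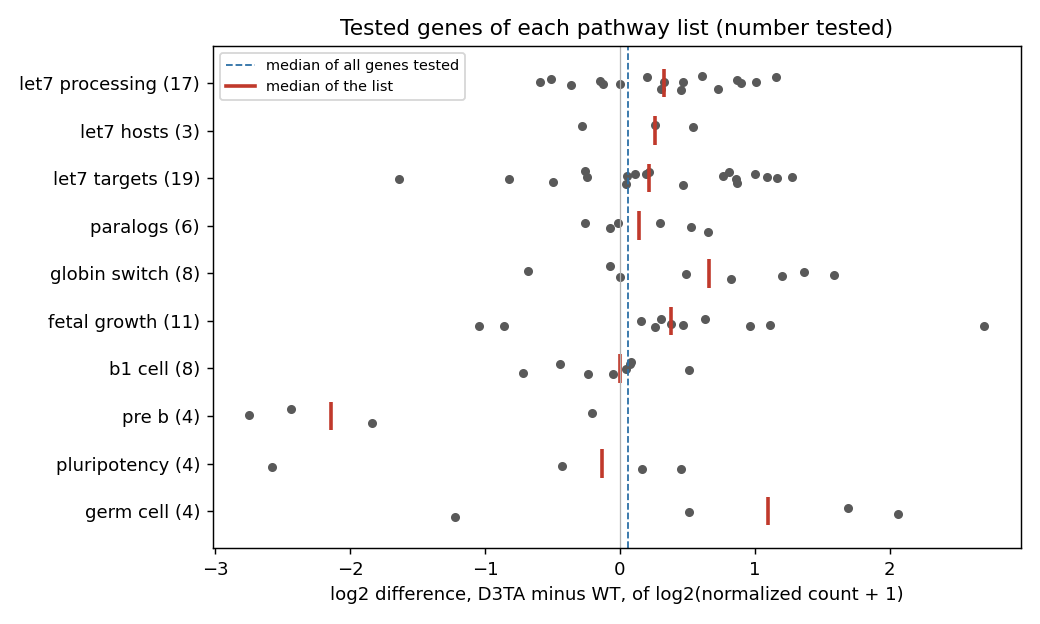
Difference between D3TA and WT (horizontal axis, log2) of each tested gene in 10 lists, with 1 point per gene, a red line at the list median and a dashed line at the median of all genes tested, 0.06. The 4 tested genes of the precursor B list lie below 0, and the other lists hold genes on both sides.

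The genes that the fetal programme is known to govern in red cells and B cells lay on both sides of 0 or were too low to test. The embryonic globins Hbb-bh1, Hbb-y and Hba-x, made by red cells of the embryo, reached at most 24.6 in any library, and none could be tested. Hbb-bh1 had 10.7, 5.05 and 2.59 in the D3TA libraries and 3.82, 24.6 and 0 in the WT libraries, so the highest value was in WT-2. Of 8 regulators of globin switching, 6 lay above 0. Nfix had a difference of 1.37 ± 0.53 and Myb one of 1.21 ± 0.51 (limma adjusted p = 0.427 and 0.472). Bcl11a, which silences fetal globin, had a difference of -0.68 ± 0.37 with overlapping groups. The B cell sums given above were lower in D3TA, and their part in the Bcl11a values was not tested. Hic2, a repressor of Bcl11a, was near 0 with a sign that depended on the scaling. The 8 genes listed for B-1 cells, the B cells that fetal precursors favour, were split 4 and 4 with a median of 0.00. Bulk RNA does not show which cells of the spleen these values came from.

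Of 8 precursor B genes 4 were tested, and the 4 lay below 0 with a median of -2.14. Vpreb3, part of the precursor B cell receptor complex, had 51.4, 147 and 95.1 in the D3TA libraries and 623, 451 and 802 in the WT libraries. Its difference of -2.75 ± 0.44 was near the threshold (limma adjusted p = 0.0945), and all 3 D3TA values lay below all 3 WT values. Ebf1, a factor of early B cells, differed by -1.84 ± 0.46 (limma adjusted p = 0.240), with 141, 488 and 244 against 1155, 1143 and 587. Dntt had 9.64, 12.1 and 19.9 in the D3TA libraries and 39.2, 131 and 87.0 in the WT libraries, with no overlap. Its difference of -2.44 ± 0.67 did not pass (limma adjusted p = 0.285). Il7r, the receptor for interleukin 7, was close to 0 at -0.21 ± 0.38. Igll1 and Vpreb1, of the surrogate light chain, were too low to test, at no more than 9.09 in any library, and their groups overlapped. The B cell sums given above were lower in the same libraries, and their part in these values was not tested.

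Of 13 fetal growth genes 11 were tested, 9 above 0 and 2 below, with a median of 0.38. Of these 11, groups did not overlap for 2 genes higher and 2 lower in D3TA, beside 8.18% and 6.84% of all genes. The 2 lower genes, Cdkn1c and Ndn, differed by -1.04 ± 0.54 and -0.86 ± 0.40 (limma adjusted p = 0.567 and 0.526). Ezh2, a histone methyltransferase of dividing progenitors, had 2625, 1752 and 1208 in the D3TA libraries and 800, 857 and 797 in the WT libraries. Its groups did not overlap, and its difference was 1.11 ± 0.32 (limma adjusted p = 0.302). The sum of mitosis markers stood in the same order over the D3TA mice, and its part in the Ezh2 values was not tested. Grb10, an imprinted inhibitor of growth signals, differed by 0.96 ± 0.42 (limma adjusted p = 0.489). Igf2, the growth factor for which the Igf2bp genes are named, had 4.32 in D3TA-3 and was at 0 in the other libraries. H19, its imprinted neighbour, had at most 12.4.

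Most genes of embryonic stem cells, in which Lin28a is best studied, were near or below detection. Nanog, Sall4 and Zfp42 were not listed, and Pou5f1 had 2.02 in D3TA-2 and was at 0 elsewhere. Of 15 pluripotency genes 4 were tested, split 2 and 2. Klf4, a factor also of adult tissues, was at 173 to 223 in every library, and Utf1 was the lowest of them at 1.07 to 6.06 in D3TA and 11.6 to 45.9 in WT. The Utf1 groups did not overlap, and its difference of -2.58 ± 1.06 did not pass (limma adjusted p = 0.456). Of 16 germ cell genes 4 were tested and 8 more were listed at no more than 22.5. Ddx4, a germline RNA helicase, had 38.6, 31.3 and 16.4 in the D3TA libraries and 1.91, 6.71 and 12.6 in the WT libraries. Dnd1, a germ cell RNA-binding protein, had 103, 80.8 and 32.8 against 16.2, 14.5 and 30.9. Both had groups that did not overlap, with differences of 2.06 ± 0.93 and 1.69 ± 0.66 that did not pass (limma adjusted p = 0.504 and 0.432).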

How the data were processed

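RNA was measured in splenocytes of 3 D3TA and 3 WT mice, 1 library each. Per the submitters' processing notes, DESeq2, HISAT2, Trim Galore, FastQC and CASAVA were used with the build mm10, and neither versions nor roles are given. The deposited signal was read as gene counts scaled by the authors with 1 size factor for each library, because its values are whole multiples of a step. Whole reads were recovered within 0.001 for 100% of 149436 values. GENCODE M21 held 24895 of the 24906 gene identifiers.

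The 15564 genes reaching 10 in 3 or more libraries entered limma 3.58.1 in R 4.3.3, on log2(normalized count + 1), with robust and trended variances and genotype as the only factor. On recovered reads, edgeR 4.0.16 called 0 genes (1611 at an unadjusted p under 0.05) and DESeq2 1.42.0, run on all listed genes with its own filter, called 472, of which 422 were among the genes limma tested. Alternatives were other scalings, filters, pseudocounts of 0.5 and 5, limma-voom, terms for hemoglobin-rich and Y-linked libraries, a replicate block, and each library left out. D3TA-1 and WT-2 were also left out together. Precision is limited by depth, and floors in reads cover counting error only.

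The genes and lists were chosen with earlier results of these data known. Named genes are the 7 genes, the 2 smallest p of each list, a preset group of let-7 and fetal genes, neighbours within 100 kb and the genes closest by Pearson's r. Some of these are not reported here. Chosen after values were seen were the Y-linked limit of 1000 reads, the range of 5 to 25 and the level of 50 for genes at 0, the r limit of 0.9, the ratios to marker sums, the seed matches and the levels of 12 and 50 used in the closing observations. Gpat2, Dntt, Sox6, Rag1, Abca13, Cdkn1c, Ndn, Cxcr2, Cdk1, Birc5 and the genes that overlap others were named after their values were seen. Sequences came from RefSeq (GRCm38.p6) and GENCODE M21. Each library is a separate mouse.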

Additional observations from a re-analysis of the deposited data

How the results depend on the processing

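The count of genes past limma's adjusted threshold was 0, with 1542 at an unadjusted p under 0.05. It was 44 with no filter on low values, 15 with a term for Y-linked libraries, 11 with a term for hemoglobin-rich libraries and 472 by DESeq2 on all listed genes (422 of them among the 15564). It ranged from 0 to 306 with 1 library left out, the 306 without D3TA-3. Of the 4 genes tested besides Lin28a, 0 passed in any of these. Of the list genes, 0 passed in the main analysis, 1 with no filter (Vpreb3), 5 by DESeq2 on all listed genes (Vpreb3, Dntt, Ebf1 and Rag1 lower and Sox6 higher, with Rag1 above 10 in WT-2 only and outside the genes limma tested) and 0 to 3 with 1 library left out (Vpreb3, Sox6 and Myb without D3TA-3). The replicate numbers did not pair the mice, with correlations of their deviations of -0.057, -0.0046 and -0.13, and with the replicate block 0 genes passed and Arid3a kept its difference of 0.91 (adjusted p = 0.422).

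Signs turned for 9 of the named genes. With D3TA-1 and WT-2 both left out, differences were 0.049 for Arid3b, -0.13 for Dnmt3b, and 0.067 for Hic2. Hic2 was at 0.0064 with library size only, 0.038 by edgeR and 0.048 by DESeq2. Hmga1 was at 0.061 with library size only, 0.013 by edgeR, 0.027 by DESeq2 and 0.20 with the hemoglobin term, and Myc at -0.0070 by edgeR. With 1 library left out, Bhlhe41 ranged from -0.15 to 0.37, Hic2 from -0.52 to 0.16, Hmga1 from -0.29 to 0.28 and Huwe1 from -0.0093 to 0.93. Myc ranged from -0.31 to 0.46, Nras from -0.047 to 0.10 and Ubxn11 from -0.49 to 0.10. The cause of these turns was not tested. The zeros of WT-2 limit the comparisons of low genes.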

Other observations

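Levels set around the values of Lin28a, at most 12 in every WT library and at least 50 in every D3TA library, were met by 2 other genes, which is a description only. They were Gpat2, a mitochondrial acyltransferase known from testis, at 57.8, 173 and 201 in D3TA and 2.87, 0 and 3.87 in WT, and Abca13, a transporter gene, at 258, 86.9 and 79.5 against 4.78, 0 and 2.90. Both were listed at 0 in WT-2, as was Lin28a.

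Genes with let-7 seed matches were also counted over the whole table, as a description. Of 493 tested genes whose 3′ UTR held CTACCTCA, 65.5% lay above 0 with a median difference of 0.23, beside 55.2% and 0.06 for all 13367 tested genes with an annotated 3′ UTR. Among UTRs of 1500 to 4000 bases, 68.1% of 229 genes with these letters lay above 0, with a median of 0.26, and 57.2% of 3740 genes with no match did, with a median of 0.09. Limma called 0 genes in each of these sets. Genes are not independent replicates, and the sets were not compared by a test.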
